A study of Mus musculus with 4 samples.

Results

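CpG clusters that were low in methylation in induced pluripotent stem cells (iPSCs), already raised in NESTIN-GFP precursors and still raised in iPSC-derived dopaminergic (iPSC-DA) neurons, while low in primary mesodiencephalic dopaminergic (mdDA) neurons, are described here. A cluster is a run of at least 10 autosomal cytosine positions, each with at least 5 methylation calls in all 4 libraries, with neighbouring positions under 100 bp apart. Its level is the percent of methylated calls among all calls of its positions. A cluster was selected on its levels, which had to be under 20% in iPSCs and mdDA neurons, at least 20 percentage points above iPSCs in precursors and iPSC-DA neurons, and under 55% in iPSC-DA neurons. Of 14973 clusters, 856 met these limits, which is 5.72%, and they held 15343 positions. Members were thus chosen by their levels in all 4 libraries, which are given as a description and without a test.

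The study asked how close the DNA methylation of iPSC-DA neurons comes to that of mdDA neurons from the embryo, using reduced representation bisulfite sequencing (RRBS), which reads MspI fragments rich in CpGs. Each of the 4 groups had 1 library, so no difference here has a replicate check. The iPSCs came from embryonic fibroblasts of Pitx3 Gfp/+ mice, which carry Gfp in 1 allele of the dopaminergic transcription factor gene Pitx3, after retroviral transfer of Oct4, Klf4, Sox2 and cMyc. The iPSC-DA neurons, also Pitx3 Gfp/+, were differentiated for about 4 weeks on MS5 stromal cells, with Noggin, SB431541, SHH, FGF8 and BDNF among the factors, and sorted for GFP. The mdDA neurons were sorted for GFP from Pitx3 Gfp/+ embryos at E14.5. The library labelled Nestin-GFP neurons, from a separate Nestin Gfp/+ reporter line, was collected after 14 days of differentiation, and the study's methods describe these cells as GFP-positive precursors. Precursors thus differed in reporter line as well as in stage from both iPSCs and iPSC-DA neurons, and these cannot be told apart. Each gain in precursors given below is a difference from iPSCs of the other reporter line. Whether the sequenced iPSCs and iPSC-DA neurons came from the same clone is not given in the sources used here.

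In mammals DNA methylation sits mainly on CpGs, where DNMT3A and DNMT3B place it anew and DNMT1 copies it when DNA replicates. CpG islands, the CpG-rich stretches at many promoters, are mostly free of it in the body, and their methylation goes along with stable silencing. Genes for developmental regulators lie in long islands that Polycomb complexes mark in stem cells, and such islands are known to gain methylation in cultured cells.

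The sequences before the start sites of 4 genes are given as examples. They are not typical of the early gain, since only 1 CpG shown at Rspo4 and 1 at Drd5 gained at least 20 points in precursors. They were chosen after their values were seen, among members that cover a start site of a gene in the lists used below and hold at least 10 read CpGs before it. Each is the 250 bases before the RefSeq start site in GRCm38.p6, on the strand of the gene, and capitals mark the CpGs with at least 5 calls in all 4 libraries. Wnt1, which encodes a secreted signal of the midbrain-hindbrain boundary, lies on the plus strand at chr15:98789607-98789856, and 16 of its 23 CpGs were read.
Wnt1: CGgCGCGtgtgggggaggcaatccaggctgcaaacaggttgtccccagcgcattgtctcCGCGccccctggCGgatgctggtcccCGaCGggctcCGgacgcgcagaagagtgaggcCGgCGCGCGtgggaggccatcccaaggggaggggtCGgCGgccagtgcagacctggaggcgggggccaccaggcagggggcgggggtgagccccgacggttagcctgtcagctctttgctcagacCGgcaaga
Rspo4, encoding a secreted amplifier of WNT signalling, lies on the plus strand at chr2:151842677-151842926, with 18 of 24 CpGs read.
Rspo4: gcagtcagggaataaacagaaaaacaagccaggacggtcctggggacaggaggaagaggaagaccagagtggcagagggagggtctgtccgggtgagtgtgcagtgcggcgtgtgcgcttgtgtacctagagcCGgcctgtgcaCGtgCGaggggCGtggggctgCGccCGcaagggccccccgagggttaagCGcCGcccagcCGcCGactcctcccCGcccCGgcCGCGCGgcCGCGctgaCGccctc
Drd5, encoding a D1-class dopamine receptor, lies on the plus strand at chr5:38319259-38319508, with 10 of 35 CpGs read.
Drd5: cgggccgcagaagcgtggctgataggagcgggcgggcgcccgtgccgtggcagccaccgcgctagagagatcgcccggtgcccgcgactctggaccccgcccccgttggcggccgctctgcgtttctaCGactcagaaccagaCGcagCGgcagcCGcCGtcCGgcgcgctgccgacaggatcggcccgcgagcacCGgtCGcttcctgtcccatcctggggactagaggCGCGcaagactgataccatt
Gria2, encoding a subunit of AMPA glutamate receptors, lies on the minus strand at chr3:80802836-80803085, with 10 of 19 CpGs read.
Gria2: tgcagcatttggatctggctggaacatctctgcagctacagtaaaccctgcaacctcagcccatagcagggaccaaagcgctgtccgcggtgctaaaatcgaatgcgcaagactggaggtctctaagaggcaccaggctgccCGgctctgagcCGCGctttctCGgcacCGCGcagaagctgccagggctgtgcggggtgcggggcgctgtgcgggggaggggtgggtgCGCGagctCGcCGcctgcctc

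At these 4 start sites the gain was laid out differently along the cluster. The 16 Wnt1 CpGs had a median level of 2.07% in iPSCs, 42.3% in precursors, 52.6% in iPSC-DA and 2.68% in mdDA neurons, and 10 of them gained at least 20 points in precursors against 12 in iPSC-DA neurons. The 18 Rspo4 CpGs had medians of 1.20%, 0%, 28.8% and 1.32% in the same order. Of these 18 CpGs, 1 gained at least 20 points in precursors and 13 did in iPSC-DA neurons, so the early gain of the Rspo4 cluster lay behind the start site. Its positions before the start site stood at 7.21% in precursors (208 calls) and those after it at 41.5% (287 calls), whereas iPSC-DA neurons had 28.9% and 31.4%. The Drd5 cluster was alike, with 9.43% before (106 calls) and 74.4% after the start site (39 calls) in precursors, against 30.5% and 36.0% in iPSC-DA neurons. At Gria2 precursors rose from 20.5% before to 39.5% after (81 calls), and iPSC-DA neurons from 36.2% to 55.3%. Wnt1 ran the other way, with 36.9% before and 17.9% after the start site in precursors (39 calls after it) and 45.3% and 28.6% in iPSC-DA neurons. Over the 58 members with at least 5 positions on each side of a start site no side was favoured, since 27 were higher after it in precursors and 26 in iPSC-DA neurons.

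**Figure D1:**
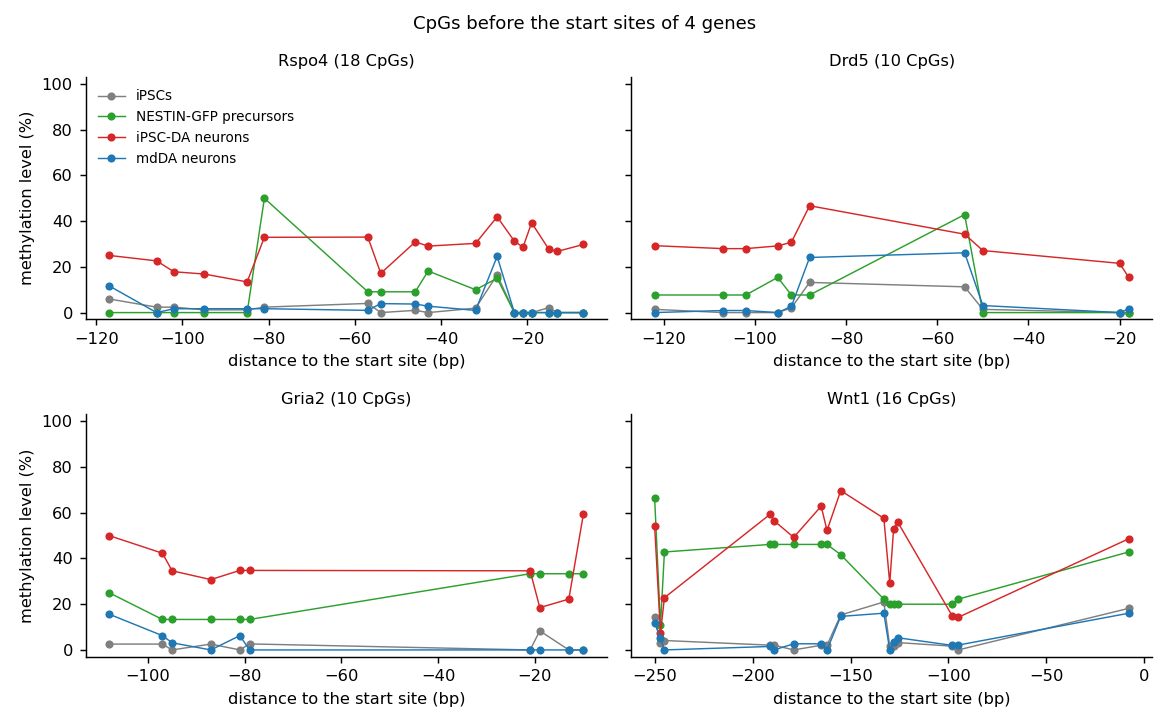
Methylation level (%) of each read CpG before the start sites of Rspo4 (18 CpGs), Drd5 (10), Gria2 (10) and Wnt1 (16) in the 4 libraries, against the distance to the start site in bp. Lines join CpGs of one library. Precursors lie near iPSCs before Rspo4 (median 0%) and follow iPSC-DA neurons before Wnt1 (42.3% and 52.6%).

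Over all 856 clusters the median level was 5.32% in iPSCs (quartiles 4.02 and 7.17, n = 856 clusters of 1 library), 34.5% in precursors (29.1 and 46.2), 41.2% in iPSC-DA (35.2 and 46.4) and 6.43% in mdDA neurons (4.83 and 8.30). The limits of the rule set much of this shape, with precursors free to rise to 92.5% and iPSC-DA neurons held at or below 54.9%. The gain from iPSCs had a median of 29.0 points in precursors and 34.9 points in iPSC-DA neurons. All 856 passed Fisher's exact test on their calls (two-sided) for a gain of at least 20 points in both, as the rule requires, and among all 14973 clusters 18.2% did so in precursors and 33.2% in iPSC-DA neurons. By the same test 824 members (96.3%) were at least 20 points above mdDA neurons in iPSC-DA neurons, against 27.7% of all clusters. Nothing is read from these 3 shares, because the rule fixed them.

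**Figure D2:**
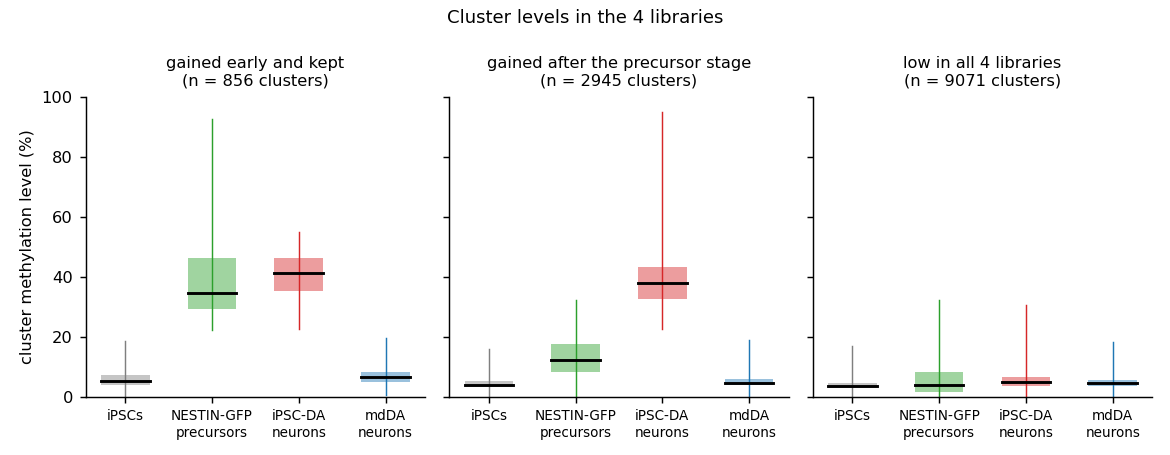
Methylation level (%) of clusters in the 4 libraries, for the 856 clusters gained early and kept, 2945 gained only after the precursor stage and 9071 low throughout. Black lines are medians, boxes the quartiles and thin lines the full range. The first kind stands at 34.5% in precursors and the second at 12.3%, with iPSC-DA medians of 41.2% and 37.9%.

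Among the 13685 clusters that were low in iPSCs and mdDA neurons, 1669 gained at least 20 points in precursors and 3983 in iPSC-DA neurons, and 1038 in both. Of the clusters with a gain in iPSC-DA neurons, 26.1% thus also had one in precursors. Of the 1669 clusters with a gain in precursors, 1038 also had one in iPSC-DA neurons. These shares compare 2 libraries of different reporter lines and do not follow the same cells. The upper limit of 55% removed 182 of the 1038. At the edges of the rule, the member nearest the precursor limit, chr17:27821993-27822364 (NCBIM37, as all cluster positions here), had gained 20.002 points and the nearest cluster outside, chr1:12980754-12980871, 19.998 points. Of the clusters that failed 1 limit only, 2816 missed the precursor gain, 631 the iPSC-DA gain, 43 the mdDA limit and 5 the iPSC limit.

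Whether the early gain was kept at its precursor level was asked by setting iPSC-DA neurons against precursors, a contrast in which the rule bounds both levels. iPSC-DA neurons were higher at 526 of 856 clusters (61.4%), and the median difference was 4.12 points (quartiles -6.29 and 12.3, range -52.4 to 29.2). The median turned to -0.805 points when clusters of at least 5 positions were taken and to -2.27 points when both gains had to reach 30 points. By Fisher's exact test on the calls (two-sided, Benjamini-Hochberg adjusted over the 14973 clusters), 275 members (32.1%) were at least 10 points higher in iPSC-DA neurons, against 25.2% of all clusters. Another 170 members (19.9%) were at least 10 points lower, against 11.4% of all clusters. With a limit of 20 points, 59 were higher, against 15.9% of all clusters, and 89 lower, against 4.68%. Among the 1669 clusters with an early gain, whatever their iPSC-DA level, the balance was the opposite, with 394 (23.6%) at least 10 points higher and 784 (46.97%) lower. The members' balance is thus set in part by the iPSC-DA gain that the rule asks for, and nothing is read from it. The test compares 2 libraries and counts linked calls of the same molecules as independent, so its p-values are too small. At 222 members the libraries lay within 5 points and at 406 within 10 points. The typical 95% Wilson interval spanned 11.3 points in precursors and 4.90 points in iPSC-DA neurons, and such intervals cover counting error only, since PCR copies are not separate molecules.

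Members are set out by precursor level as a description, since the rule holds iPSC-DA levels between 22.6% and 54.9% and so limits any relation. For the 250 members at 20 to 30% in precursors the iPSC-DA median was 39.5%, for the 306 at 30 to 40% it was 41.6%, for the 172 at 40 to 55% it was 41.4%, and for the 128 at 55% or more it was 42.5%. Across the 856 members Pearson's r between these libraries was 0.0828 and Spearman's rho 0.102, over clusters of the same 2 libraries. All members at 55% or more in precursors lie lower in iPSC-DA neurons by the rule. The r of precursors was 0.476 with iPSCs and 0.436 with mdDA neurons, whose ranges the rule limits as well. The members at 55% or more in precursors had medians of 7.59% in iPSCs and 8.31% in mdDA neurons, where those at 20 to 30% had 4.26% and 5.16%. The cluster at chr11:70333860-70334079 reached 92.5% in precursors and stood at 42.7% in iPSC-DA neurons, 7.74% in iPSCs and 12.2% in mdDA neurons.

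**Figure D3:**
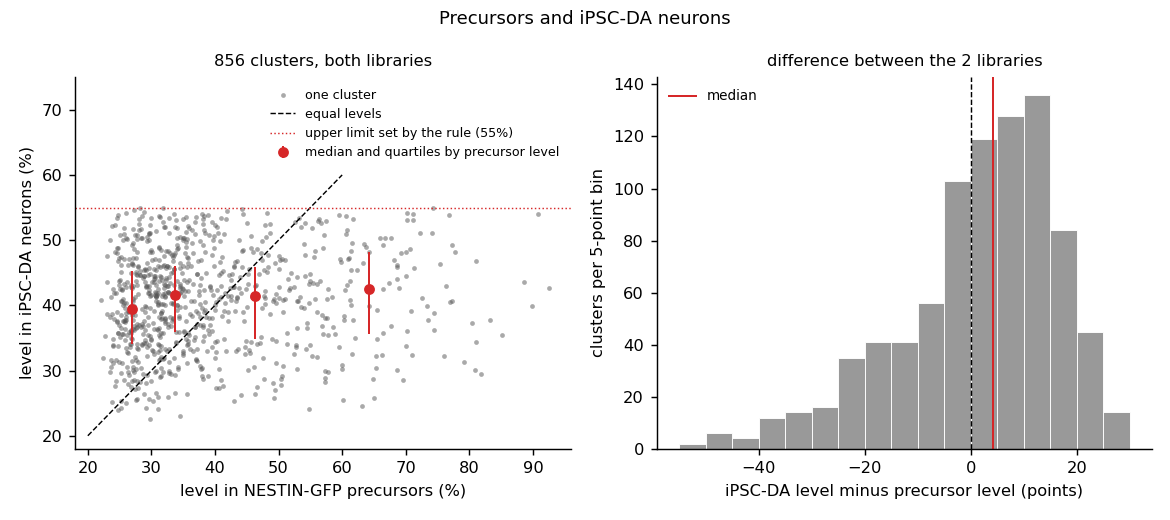
Left, level (%) of each of the 856 clusters in NESTIN-GFP precursors against iPSC-DA neurons, with red points and bars for medians and quartiles by precursor level, a dashed line for equality and a dotted line for the 55% limit. Right, number of clusters by difference in points. The 4 red medians run from 39.5% to 42.5% while precursors rise from 27.0% to 64.2%.

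Clusters with at least 20 positions and 100 calls in every library show both directions with narrow intervals. The cluster at chr5:30768325-30768556 went from 17.96% in iPSCs to 76.9% in precursors (95% interval 74.3 to 79.4) and 40.6% in iPSC-DA neurons (38.7 to 42.5), with 8.13% in mdDA neurons, the largest fall of this kind. At chr11:68369612-68369903 the levels were 11.7%, 76.3%, 42.9% and 13.9% in the same order, the largest precursor gain at 64.6 points. At chr15:74819061-74819206 they were 11.0%, 66.3%, 32.4% and 5.61%. The largest rise after the precursors, 29.2 points, was at chr2:25036365-25036624, with 4.04%, 24.7%, 53.9% and 4.05%. Next came chr7:106616792-106616974, with 2.60%, 23.7%, 52.2% and 3.47%, and chr10:36226792-36226986, with 2.87%, 24.2%, 52.4% and 4.39%. Equal levels were also found, with wider precursor intervals. At chr7:71646726-71646900 precursors had 31.9% (26.6 to 37.8) and iPSC-DA neurons 32.0%. At chr11:105829310-105829570 both had 28.2% (22.6 to 34.7 in precursors). These equal levels depended on the processing. With the unweighted mean of positions the chr7 difference was -11.4 points, and at a minimum of 10 calls the chr11 difference was 11.2 points. In thinned libraries they were -1.52 and -1.91 points.

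Inside the clusters the gain was patchy in precursors and even in iPSC-DA neurons. Of the 15343 positions, 64.2% had gained at least 20 points in precursors, 85.7% in iPSC-DA neurons, 55.9% in both and 6.00% in neither. A position that had gained in precursors had gained in iPSC-DA neurons in 87.1% of cases, and one that had not in 83.2%. In clusters gained only after the precursor stage these shares were 88.4% and 82.4%, and the rule asks for an iPSC-DA gain in both kinds. At least 90% of positions had gained in 437 members in iPSC-DA neurons and in 151 in precursors. The median SD among positions of a cluster was 22.1 points in precursors, 13.1 in iPSC-DA neurons, 7.19 in iPSCs and 8.95 in mdDA neurons. Depth moved with this, as a position of a member had a median of 14 calls in precursors and 87 in iPSC-DA neurons, and its part in the difference was not tested beyond a minimum of 10 calls per position, at which the shares were 64.5% and 86.7%. Intermediate levels, from 20 to 80%, were held by 89.6% of positions in iPSC-DA neurons, and only 2.25% exceeded 80%. In precursors 28.0% of positions were still under 20% and 8.92% exceeded 80%. Within a bulk library, a level near 40% can mean partly methylated molecules in all cells or fully methylated ones in some, and these cannot be told apart here. The outer parts of the clusters, 20% of the length at each end, stood at 41.7% in precursors against 36.1% in the middle, while iPSC-DA neurons differed less, with 42.0% and 40.9%.

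Gene names were attached by matching the spacing of read CpGs to RefSeq promoters, which placed 5803 promoters, 99.5% of them on the chromosome of the table. A located start site lay within 1 kb of 263 members (30.7%), against 44.7% of all clusters. The share was 36.2% for clusters gained only after the precursor stage and 55.1% for clusters low throughout. It was 46.8% for clusters gained in precursors only and 15.4% for those that gained early and passed 55%. Only start sites with at least 12 listed CpGs could be located, and how this moved the shares was not tested. Of the 263, 92 covered the start site, 57 lay before and 114 behind it, at 264 genes. Clusters that cover a start site can be compared by sequence, over 300 bases around it. The 95 promoters of such members had a median of 26 CpGs and an observed-to-expected CpG ratio of 0.757, the 404 promoters with a later gain 32 and 0.872, and the 2096 low throughout 30 and 0.895. Promoters gained in precursors only had 27 and 0.869, so the CpG number of the members was close to theirs. GC content was 68.0%, 71.3%, 68.3% and 66.0% in these 4 kinds. As clusters, members had a median of 15 positions and 9.03 positions per 100 bp, where clusters gained later had 21 and 11.5 and all clusters 19 and 10.8. Clusters gained in precursors only were sparser still, with 13 and 8.20, and those that gained early and passed 55% had 14 and 9.73.

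Developmental transcription factors made up one group of the named genes. Of the 74 clusters near homeobox genes outside the Hox loci, 8 were members (10.8%), against 263 of 6688 clusters near any located start site (3.93%). Later gains were more common, with 47 of the 74, against 1066 of the 6688. Lmx1b, a determinant of dopaminergic progenitors, had 3 clusters over its 5′ end. The cluster over its start site rose in iPSC-DA neurons but fell short of the early gain, with 5.55% in iPSCs, 22.6% in precursors, 43.6% in iPSC-DA and 5.80% in mdDA neurons. The member 231 bp behind the start site, with 53 positions, had 3.63%, 27.0%, 40.6% and 3.64%. The member 806 bp behind it had 9.43%, 48.2%, 45.04% and 10.4%. Precursor levels thus increased away from the Lmx1b start site over these 3 clusters, while iPSC-DA levels stayed between 40.6% and 45.04%. The 2 members also lie near the start sites of C130021I20Rik and Gm39790, which share this promoter region.

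En1, which encodes a homeodomain factor needed for the survival of midbrain dopaminergic neurons, had a later gain on one side of its start site and a member on the other. Its cluster 147 bp before the start site had 4.38% in iPSCs, 12.0% in precursors, 32.9% in iPSC-DA and 4.94% in mdDA neurons, and its member 562 bp behind the start site 3.20%, 35.02%, 42.5% and 3.23%. Nkx6-2, a factor of ventral neural progenitors and oligodendrocytes, had a member of 50 positions over its start site, with 3.81%, 24.8%, 46.8% and 4.62%, a further rise of 22.0 points after the precursors. Lhx4, a LIM-homeodomain factor of motor neuron and pituitary development, stood at 3.15%, 33.6%, 43.1% and 4.10%. Satb1, a chromatin organizer, stood at 5.97%, 38.9%, 53.8% and 7.08%, and Nkx2-4 at 3.599%, 25.8%, 34.6% and 3.85%. The iPSC-DA level was at least 10 points higher by the test in 3 of the 8 homeobox clusters and lower in none, near the 32.1% of all members and the 25.2% of all clusters. Lhx4 and Nkx2-4 depended on the averaging, since with the unweighted mean of positions their differences went from 9.45 to 33.7 points and from 8.80 to -19.8 points, and Satb1 went from 14.9 to 8.45 points at a minimum of 10 calls.

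Sox, bHLH and Zic genes had 5 members among 39 clusters (12.8%), with precursor levels from 22.4% to 38.2%. In none did iPSC-DA neurons differ by 10 points and pass the test. Of all members 32.1% were higher and 19.9% lower, and of all clusters 25.2% and 11.4%. The lack of calls in this list depended on the processing. With unweighted positions Neurog3 differed by 20.7 points and Sox11 by 14.8 points, and at a minimum of 10 calls Sox14 differed by 25.7 points. The Sox2 clusters stayed within 10 points in both settings. Sox2, a factor of pluripotency and of neural stem cells, had 2 of the 5 members. The Sox2 member 419 bp behind the start site had 2.88% in iPSCs, 29.1% in precursors, 28.1% in iPSC-DA and 3.98% in mdDA neurons, and the member at 867 bp 6.55%, 38.2%, 42.4% and 6.81%. The reprogrammed cells also carry viral Sox2 copies, and reads of these and of the gene cannot be told apart here. Sox11, active in newborn neurons, had 2.33%, 22.4%, 31.9% and 3.92% at 664 bp behind its start site. Neurog3, known from endocrine progenitors, had 5.64%, 27.3%, 36.8% and 4.57%, and Sox14, a factor of ventral interneurons, 6.17%, 34.5%, 39.7% and 4.93%. In the Fox, Gata and T-box list 3 genes had a member, in 31 clusters. Gata2 stood at 6.04%, 32.8%, 51.0% and 8.70%, Foxn4 at 9.30%, 31.2%, 36.5% and 16.9%, and Foxl2 at 4.97%, 30.99%, 32.9% and 8.48%. Hox genes had 1 member among 8 located clusters, at Hoxd12, with 12.6%, 45.2%, 44.9% and 9.97%. The other members of the group that ends there, described below, had no located start site and are not in this count.

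Secreted signals of the Wnt, Hedgehog, Fgf and Bmp families gave 7 members among 72 clusters of the list (9.72%). In all 7 iPSC-DA neurons stood above precursors, against 61.4% of all members. In 4 of them the difference was at least 10 points with the test passed, against 32.1% of all members and 25.2% of all clusters. At a minimum of 10 calls 3 of the 7 turned to lower in iPSC-DA neurons, Fgf22 from 27.3 to -0.556 points, Wnt9b from 7.97 to -12.5 points and Rspo4 from 3.001 to -0.604 points. Wnt1, whose sequence is shown above, had 6.87% in iPSCs, 34.1% in precursors (95% interval 28.6 to 40), 39.3% in iPSC-DA (37.5 to 41.1) and 5.39% in mdDA neurons. Rspo4 stood at 4.29%, 27.1%, 30.1% and 4.86%. Bmp8b, a bone morphogenetic protein, had 7.72%, 38.2%, 53.6% and 13.01%. Ihh, a hedgehog ligand best known from cartilage, had 9.89%, 32.4%, 42.9% and 11.9%. Wnt9b, a ligand of kidney development, had 3.63%, 23.7%, 31.6% and 4.10%.

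The list of ion channels and neurotransmitter receptors, which also holds the transporter genes Slc6a4 and Slc6a17, had 73 clusters. Later gains were 47 of them, against 1066 of 6688 clusters near any located start site. Members were 15 of the 73 (20.5%). This was the highest share of members among the lists with more than 12 clusters. The dopaminergic list, with 12 clusters, had a higher share of 33.3%, and all clusters near a located start site had 3.93%. By the test iPSC-DA neurons were at least 10 points higher in 8 of the 15 members of the channel and receptor list and lower in 1. The shares were 32.1% and 19.9% among all members, and 25.2% and 11.4% among all clusters. Grin2c, an NMDA receptor subunit, stood at 2.93% in iPSCs, 26.0% in precursors, 25.1% in iPSC-DA and 5.24% in mdDA neurons. Kcnk15, a potassium leak channel, had 5.67%, 27.0%, 46.4% and 8.57%. Kcnc4, a voltage-gated potassium channel, had 4 clusters along its 5′ end that alternated. Those at 752 bp before and 142 bp behind the start site gained late, with 6.35% and 15.6% in precursors, and those at 342 bp before and 465 bp behind were members, with 33.5% and 40.5%. In iPSC-DA neurons all 4 Kcnc4 clusters stood between 39.1% and 51.0%. Htr7, a serotonin receptor, had 4.18%, 33.0%, 44.996% and 5.21%, and Slc6a17, a transporter of synaptic vesicles, 6.996%, 31.5%, 40.1% and 6.42%. With libraries thinned to equal depth at each position, the Htr7 difference fell from 12.0 to 1.89 points and that of Slc6a17 rose from 8.63 to 21.7 points. Drd5 and Gria2, of the sequences above, had 26.9% and 27.9% in precursors and 31.5% and 45.9% in iPSC-DA neurons. iPSC-DA neurons stood above precursors in 11 of the 15, against 61.4% of all members. The cluster called lower was at Kcnj10, a potassium channel of glia, named after its values were seen, with 50.4% in precursors (119 calls) and 27.8% in iPSC-DA neurons. That difference of -22.6 points was -5.49 points in thinned libraries and turned to 23.5 points at a minimum of 10 calls.

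Axon guidance and adhesion genes had 3 members among 55 clusters (5.45%). In none of them was iPSC-DA above precursors, against 61.4% of all members. Unc5c, a netrin receptor, had 5.13% in iPSCs, 64.2% in precursors (95% interval 58.7 to 69.4), 39.8% in iPSC-DA (36.6 to 43.1) and 7.58% in mdDA neurons. Its difference of -24.4 points was -5.04 points with the unweighted mean of positions and -7.23 points in thinned libraries. Cdh22, a cadherin, had 4.53%, 74.4% (82 calls), 38.8% and 7.95%, and Epha7, an ephrin receptor, 2.98%, 32.8%, 29.98% and 4.76%. For the dopaminergic list, 4 of 12 located clusters (33.3%) were members, those of Lmx1b, En1 and Wnt1 given above. The other clusters of that list gained later or stayed low. Later gains included those over the dopamine receptor gene Drd2, with 3.49%, 10.4%, 36.4% and 3.66%, and behind the start site of the channel gene Kcnj6, with 9.13%, 17.6%, 41.2% and 7.94%. Low clusters were those over the start site of Nr4a2, with 2.91% in precursors and 4.11% in iPSC-DA neurons, and at Gch1 and Msx1. Clusters were located only near start sites. The study describes islands in the Nr4a2 (Nurr1) gene body that appeared more methylated in iPSC-DA than in mdDA neurons. Pluripotency and germline genes had 2 members among 24 clusters, both at Sox2. Extracellular matrix and fibroblast genes had 1 in 34, at Col8a2, with 27.6% in precursors and 36.5% in iPSC-DA neurons. None of the 56 clusters at ribosomal and respiratory chain genes was a member, and no cluster was located at the clustered protocadherins.

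**Figure D4:**
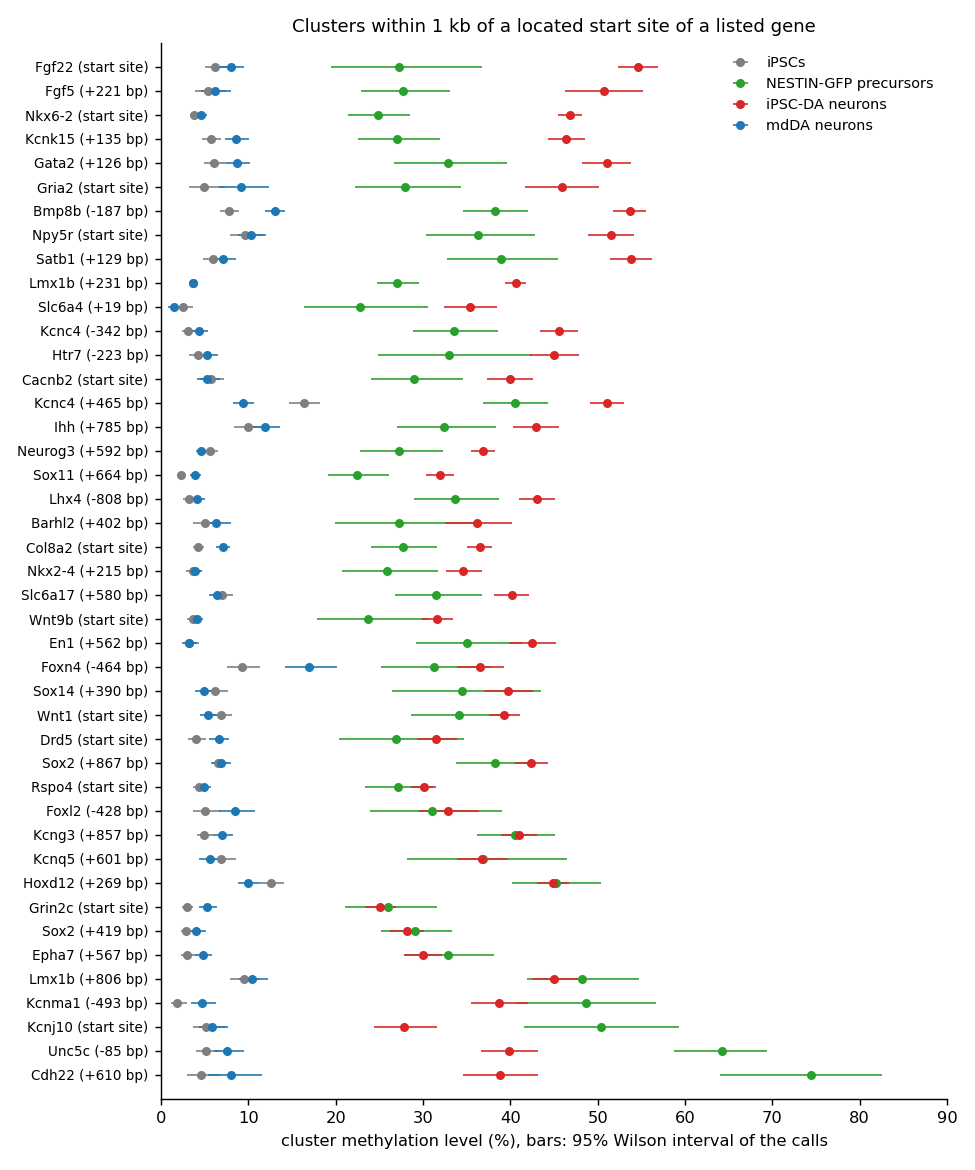
Methylation level (%) in the 4 libraries of the 43 member clusters within 1 kb of a located start site of a listed gene, with the distance of the cluster to the start site in bp. Bars are 95% Wilson intervals of the calls, and clusters are ordered by the difference between iPSC-DA neurons and precursors. iPSC-DA neurons lie above precursors in 33 of the 43, against 61.4% of all 856 members. Unc5c and Cdh22 stand out at 64.2% and 74.4% in precursors.

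Outside the lists, 220 members lay near a located start site, with medians of 32.1% in precursors and 39.97% in iPSC-DA neurons. The longest covered the start site of Shc2, an adaptor of receptor tyrosine kinases in neurons, with 75 positions and 3.77% in iPSCs, 31.9% in precursors, 47.6% in iPSC-DA and 4.61% in mdDA neurons. Osbpl6, an oxysterol-binding protein gene, had 65 positions at 3.65%, 27.8%, 37.2% and 5.42%. Mir9-3hg, the host gene of a copy of the neural microRNA miR-9, had a member of 51 positions at 5.46%, 31.9%, 46.2% and 7.39%, and its other start site a later gain, with 17.7% in precursors and 35.2% in iPSC-DA neurons. Rasgef1a stood at 4.15%, 29.0%, 39.0% and 3.87%. Spint1, a protease inhibitor, kept its level, with 4.07%, 24.2%, 27.7% and 5.11%. Fat3, an atypical cadherin, rose further, with 5.18%, 25.7%, 47.2% and 5.66%, and so did the cluster near Trhde, with 3.99%, 30%, 53.4% and 4.25%. Clusters near the start sites of Gm10190 and Gm17733, which do not cover them, had 28.4% and 29.1% in precursors and 51.7% and 43.0% in iPSC-DA neurons.

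Other kinds of cluster lay near the start sites of many genes with a member. Of the 264 genes with a member, 137 also had a cluster within 1 kb of a start site that was not a member. Of these 184 clusters that were not members, 144 gained only after the precursor stage and 28 were low throughout. A further 9 gained early and passed 55%, and 3 gained in precursors only. In 21 genes at least 2 clusters were members. Under 1 kb from 367 members (42.9%) lay a further cluster, which was a later gain in 63.5% of cases, a member in 19.6% and low throughout in 6.54%. For all clusters with such a neighbour these shares were 21.7%, 5.30% and 65.0%. The neighbours of members had medians of 4.26% in iPSCs, 17.0% in precursors, 40.2% in iPSC-DA and 5.05% in mdDA neurons. Thus 90.7% of the neighbours shared the gain in iPSC-DA neurons and 29.97% that in precursors, against 30.5% and 12.96% around all clusters. Around clusters gained later the shares were 90.2% and 18.4%, so the first of them does not set members apart.

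Scattered positions within 1 kb, outside any cluster, were read for 321 members, with at least 5 positions each. Their median was 41.0% in precursors and 42.4% in iPSC-DA neurons, against 7.30% in iPSCs and 9.31% in mdDA neurons, so both gains reached past the cluster borders. Around clusters gained later the scattered positions had 28.4% in precursors, where the clusters themselves had 12.3%. Around clusters low throughout they had 16.7% in precursors and 8.75% in iPSC-DA neurons. In these 3 kinds precursors were higher at scattered positions than inside the clusters, but around clusters gained in precursors only they were lower, with 27.6% against 33.98% inside.

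**Figure D5:**
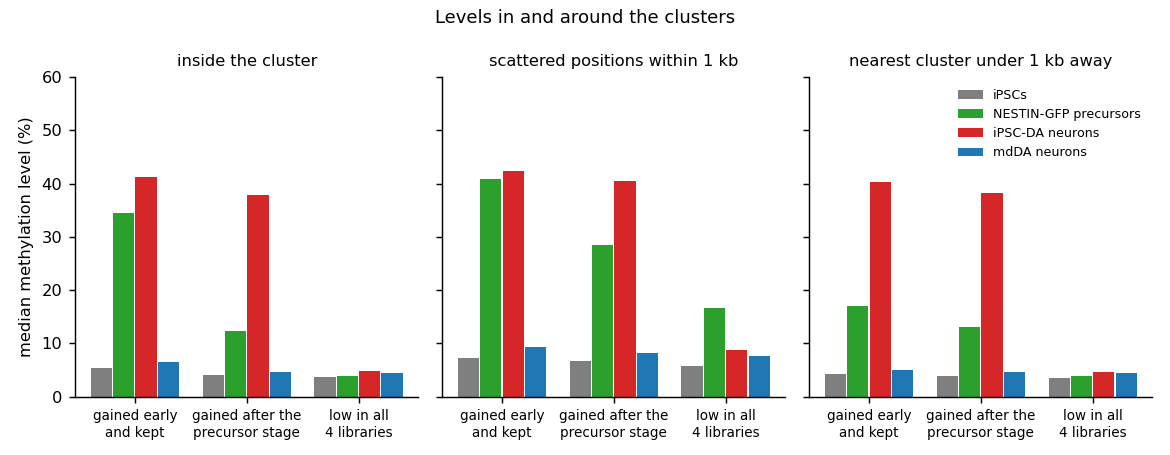
Median methylation level (%) in the 4 libraries inside the clusters, at scattered positions within 1 kb and in the nearest cluster under 1 kb away, for clusters gained early and kept, gained after the precursor stage and low throughout. Around the first kind, precursors stand at 41.0% at scattered positions but at 17.0% in the nearest cluster, where iPSC-DA neurons stay at 42.4% and 40.2%.

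Members that lay together were few. With a gap limit of 20 kb, 689 stood alone, 69 groups had 2, 7 had 3 and 2 had 4. A group of 4 ended at Hoxd12, at chr2:74493578-74513710, with precursor levels of 30.02%, 42.5%, 30.7% and 45.2% and iPSC-DA levels of 33.1%, 44.0%, 43.1% and 44.9%, while the 2 other clusters between them gained later. The other group of 4, at chr1:75356852-75384738 and near Speg, a muscle kinase gene, had 48.2% to 66.8% in precursors and 41.3% to 54.2% in iPSC-DA neurons. At Sox2 all 3 clusters from chr3:34541526-34550249 were members. Around Wnt1, at chr15:98602978-98636098, 3 of 8 clusters were members and 4 gained later, among them that of Wnt10b, with 14.9% in precursors and 31.3% in iPSC-DA neurons.

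Across the autosomes members made up 4.57% to 7.41% of clusters, with the highest share on chromosome 2. The 39 members on chromosome 10 had a median of 47.6% in iPSC-DA neurons, above the 36.0% to 43.3% of the other autosomes, while their precursor median, 32.4%, lay within the range of the others (31.1% to 39.8%). The precursor library was the shallowest, with 31419979 calls against 68545752 to 79648099 in the others, and a member had a median of 255.5 calls in precursors, 1310.5 in iPSCs, 1493.5 in iPSC-DA and 1441 in mdDA neurons. Depth moved with the difference between precursors and iPSC-DA neurons, whose median was 1.23 points for the members with fewer precursor calls than the median and 7.69 points for the rest. With libraries thinned at each position to the shallowest there, 820 clusters met the rule and the median difference was 4.82 points.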

How the data were processed

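RRBS of 4 libraries was used, with 1 library per group. According to the methods and processing notes, the authors read 40 bases on an Illumina GAIIx, trimmed reads with Trim Galore 0.3.5 after FastQC, and used Bareback and Bismark 0.10.1 for alignment and calls. The authors deposited, per cytosine position, counts of methylated and unmethylated calls without normalization, and the percent of methylated calls. Each strand has its own position, so a fully read CpG counts as 2. No genome build was named, and chromosome 1 reaches position 197183298 in the files, which fits NCBIM37 (mm9), so cluster positions are given in that build. The X chromosome was left out by the rule.

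Levels were pooled over the calls of a cluster, at a minimum of 5 calls per position in all libraries. Precursors and iPSC-DA neurons were compared per cluster by Fisher's exact test (two-sided), with Benjamini-Hochberg adjusted values over 14973 clusters (scipy 1.17.1, statsmodels 0.14.6, pandas 2.3.3). Differences were called at an adjusted p of 0.05 and 10 points. The calling was also run on simulated data. Simulated calls were drawn independently, so that run does not cover linked calls or PCR copies. Intervals are 95% Wilson. The 1 library per group allows no spread between replicates.

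The genes were found without converting coordinates, by matching the spacing of listed positions to the CpGs of RefSeq promoters in GRCm38.p6. The planned match used cluster positions alone and 8 CpGs, and of 467 members only 101 (21.6%) fell on the right chromosome. Names come from an alternative added after the data were seen, with all listed positions within 1 kb, at least 12 CpGs and the same chromosome. Sequences are from RefSeq, GRCm38.p6.

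Members and gene lists were chosen with earlier results of these data known. Clusters were named by position among members with at least 20 positions and 100 calls, by largest gain, rise, fall and smallest difference, and at the limits. Genes were up to 5 per list by number of positions, the 10 others with most positions, and all located dopaminergic genes. Names of Drd5, Gria2 and Kcnj10 were added after their values were seen. Alternatives were other minima of calls and positions, gaps, gains and limits, unweighted and thinned levels, and chromosome 10 left out.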

Additional observations from a re-analysis of the deposited data

Results flagged for a closer look

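The rule was limited to autosomes, and the X chromosome was therefore data outside the main comparison. Of 232 clusters on X, 7 met the same limits. Their medians were 3.22% in iPSCs, 31.9% in NESTIN-GFP precursors, 32.5% in iPSC-DA and 17.7% in mdDA neurons, and over all X clusters they were 4.03%, 12.4%, 25.01% and 22.9%. The sex of the cells is not given in the sources used here.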

How the results depend on the processing

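The number of members depended on the limits. It was 506 with a minimum of 10 calls, 259 with at least 20 positions, 1889 with at least 5 positions, 276 with a gain of at least 30 points and 1415 with one of 15 points. The median difference of iPSC-DA neurons from precursors changed sign with at least 5 positions (-0.805) and with a gain of 30 points (-2.27). It was 6.42 with 10 calls, 8.97 with 20 positions, 6.49 with gaps under 50 bp, 9.03 with a gain of 15 points, 5.89 without the upper limit and, added after seeing the data, 6.05 with at least 200 precursor calls. The median precursor gain was 28.1 with 10 calls, 30.2 with 3 calls, 25.9 and 33.2 with 20 and 5 positions, 27.8 and 30.02 with gaps under 50 and 200 bp, 39.8 and 23.4 with gains of 30 and 15 points, and 30.1 without the upper limit. The median iPSC-DA gain was 36.0 with 10 calls, 36.6 and 34.2 with 20 and 5 positions, 37.8 with a gain of 30 points and 37.0 without the upper limit. With a difference of at least 20 points, 59 members were higher and 89 lower in iPSC-DA neurons, against 15.9% and 4.68% of all clusters, so the balance turned to lower. With 10 calls 86.7% of member positions gained in iPSC-DA neurons. Promoters matched at 85 members with 12 CpGs of cluster positions alone and at 263 with all listed positions. Of the 65 clusters named or at the limits, the difference of iPSC-DA neurons from precursors changed sign in 10 of the 61 with a value at 10 calls, in 5 in thinned libraries and in 6 with unweighted positions. Of those called by the test, 2 did so, both at 10 calls, Kcnj10 from -22.6 to 23.5 points and Fgf22 from 27.3 to -0.556. No paired analysis was possible because each group had 1 library. For the same reason no replicate could be left out. The cause of these changes was not tested.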
